A study of Rattus norvegicus with 2 samples.

Results

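The genes described here are 5 members of the CCN family (Ccn1 to Ccn5), the YAP target genes Ankrd1 and Amotl2, and the genes of the YAP machinery itself, Yap1, Wwtr1 and Tead1. They were chosen by name, with earlier results of these arrays known, and made up 10 of 22093 genes with a single gene symbol on the array. RNA from the urinary bladder of male F344 rats was measured on 2 arrays. The DMA array held RNA pooled from 7 rats that had received dimethylarsinic acid (DMA), a methylated metabolite of arsenic, at 200 ppm in drinking water for 4 weeks, and the control array held RNA pooled from 7 rats at 0 ppm. By the labels, treatment began at an age of 6 weeks and the bladders were taken at 10 weeks, whereas the methods of the study state an older age at the start. The labels name the whole bladder and the methods describe its epithelial cells, washed off into TRIzol. Signals of smooth muscle and connective tissue genes were present in both pools, as given below. The study used these arrays to look for early expression changes under DMA, and with 1 pool per group no spread between rats and no p-value could be obtained.

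CCN proteins are secreted proteins that sit in the extracellular matrix and act on nearby cells through integrins and other surface receptors. Ccn1 (formerly Cyr61) and Ccn2 (formerly Ctgf) are induced within a short time by serum, growth factors and mechanical stretch. YAP and its relative TAZ, the product of Wwtr1, are coactivators that carry no DNA-binding domain of their own. When the kinases of the Hippo pathway are inactive, they enter the nucleus, bind TEAD factors and switch on genes such as Ccn1, Ccn2, Ankrd1 and Amotl2. The stretches of DNA upstream of Ccn1, Ccn2 and Amotl2 are shown because these 3 targets carry the core sequence that TEAD factors recognise, GGAATG, or CATTCC when read on the other strand. Each is the 250 bases before the RefSeq transcription start in the GRCr8 assembly, written 5′ to 3′ along the gene, with the core motif in capitals.
Ccn1 (chr2:237225690-237225939, minus strand): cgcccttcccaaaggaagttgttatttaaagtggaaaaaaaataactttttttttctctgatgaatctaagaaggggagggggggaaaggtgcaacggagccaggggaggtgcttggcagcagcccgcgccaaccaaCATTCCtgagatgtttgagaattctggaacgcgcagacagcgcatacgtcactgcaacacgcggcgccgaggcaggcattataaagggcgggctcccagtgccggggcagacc
Ccn2 (chr1:22624615-22624864, minus strand): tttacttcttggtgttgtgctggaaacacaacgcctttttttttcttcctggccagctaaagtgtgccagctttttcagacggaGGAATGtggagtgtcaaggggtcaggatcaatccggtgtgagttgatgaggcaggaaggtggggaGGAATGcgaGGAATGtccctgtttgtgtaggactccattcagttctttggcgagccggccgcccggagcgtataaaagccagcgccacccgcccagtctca
Amotl2 (chr8:112182376-112182625, plus strand): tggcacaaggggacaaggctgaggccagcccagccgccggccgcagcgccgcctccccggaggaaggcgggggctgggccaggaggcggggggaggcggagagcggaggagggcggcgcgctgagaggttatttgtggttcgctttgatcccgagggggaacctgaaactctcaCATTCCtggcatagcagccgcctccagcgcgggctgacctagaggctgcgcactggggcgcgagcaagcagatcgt

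The Ccn1 sequence held 1 core motif, from 113 to 108 bases before the start, on the strand opposite to the gene. The Ccn2 sequence held 3 on the strand of the gene, starting 166, 101 and 92 bases before the start. The Amotl2 sequence held 1, from 76 to 71 bases before the start, on the opposite strand. Of the 10 genes, 5 had an entry in the RefSeq promoter table used here. Of these 5, 4 held the motif, namely the 3 shown and Yap1, where it lay 116 to 111 bases before the start. Wwtr1 had no match in this window. The motif was present on either strand in 12.1% of 33469 promoters of the same length and in 9.89% of the 10422 promoters of genes with a measured signal. Neither the CArG box, the recognition sequence of serum response factor, nor the AP-1 sequence TGANTCA was found in the 5 promoters, against 1.5% and 6.34% of all promoters. A match describes letters in a window and does not show that a factor binds there. Ccn1, Ccn2 and Amotl2 were listed as known YAP targets, so the share of 4 in 5 is not read as a result. At such low shares over all promoters, absence of the CArG and AP-1 sequences from 5 promoters says little.

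**Figure D1:**
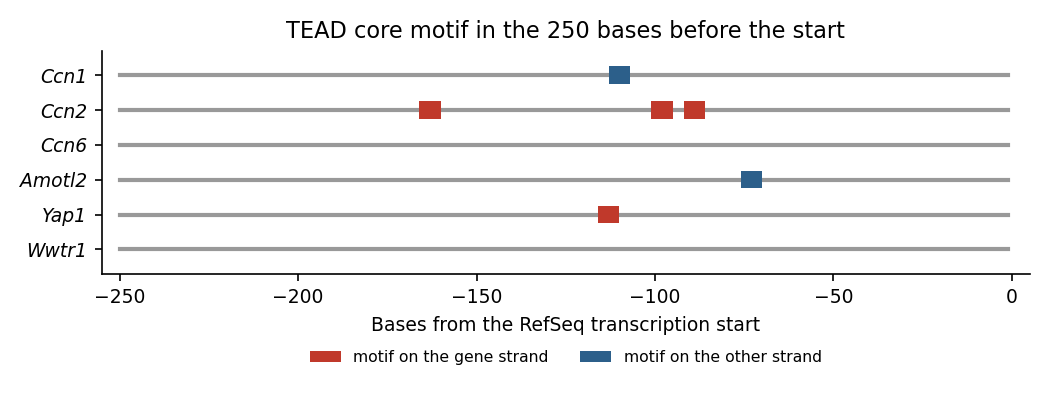
Position of the TEAD core motif in the 250 bases before the RefSeq transcription start, for the 5 genes with a promoter entry and Ccn6. The horizontal axis gives bases from the start, red boxes are motifs on the strand of the gene and blue boxes motifs on the other strand. Ccn2 has 3 motifs, Ccn1, Amotl2 and Yap1 have 1 each, and Wwtr1 and Ccn6 have no match.

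Signals are given as deposited, as linear normalized intensities of 1 transcript cluster per gene, that is, a group of probes covering a transcript. Each of the 10 genes had exactly 1 cluster with its single symbol. Intensities of different genes depend on their probes, so levels were compared for the same gene between pools and not between genes. A gene counted as measured if either pool gave a signal of 100 or more. This held for 7 of the 10 genes and for 11718 of the 22093 genes, and in all 7 both signals were above 100. A gene was called lower or higher when the ratio of DMA over control was at most 0.5 or at least 2 and its Z score, the distance from the mean log2 ratio of the 500 genes nearest in signal in units of their SD, was at most -2 or at least 2. A call places a gene among other genes of these 2 arrays and carries no information on how rats within a group varied.

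Ccn1 was far lower in the DMA pool, while the genes of YAP, TAZ and TEAD1 stayed within 1.2-fold of control. Ccn3, Ccn4 and Amotl2 had ratios below 1 without reaching 2-fold. Of the 7 measured genes, 1 was called lower and 0 were called higher, where 1.42% of all measured genes were lower and 0.375% were higher. A difference of at least 1.5-fold was seen in 2 genes in the lower direction (Ccn1 and Ccn3; 5.48% of all measured genes) and in 0 in the higher direction (1.3%). Since the genes were chosen with this contrast known, nothing is read from these counts. Ccn2, Ccn5 and Ankrd1 were below the signal minimum in both pools.

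Ccn1, a matricellular protein that promotes cell adhesion, migration and matrix turnover, gave a signal of 112 in the DMA pool, against 1612 in the control pool (cluster TC0200004857.rn.1). The DMA value lay just above the signal minimum of 100, and the control value well above it. The log2 ratio was -3.85, which is 14.5-fold lower in the DMA pool, with a Z score of -11.2. In a pool of bladder RNA, fewer cells that express a gene and less of its RNA per cell cannot be told apart. Only Cyp1a1, the drug-metabolising enzyme switched on by dioxin-like compounds, had a lower ratio among the 11718 measured genes (26.7-fold lower). The gene after Ccn1 in that order, the beta-globin gene Hbbl1, whose probes may also read other beta-globin copies, was 7.03-fold lower. Only 13 measured genes were at least 4-fold lower and 2 were at least 8-fold lower.

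Among genes of like signal, Ccn1 stood apart from its neighbours. Of the 500 measured genes nearest to it in mean signal, 8 were at least 2-fold lower, and the lowest of these, the chemokine gene Ccl21, was 3.24-fold lower. The log2 ratios of these 500 genes, Ccn1 itself left out, had a median of -0.05 and an SD of 0.29. The Z score was taken over 500 genes that included Ccn1, with a mean of -0.10 and an SD of 0.33. The 3 genes nearest to Ccn1 over the log2 signals of both pools were Ccl21 (240 in the DMA pool and 776 in the control pool), the chemokine receptor gene Ccr2 (349 and 1210, in the same order) and the adhesion gene Opcml (181 and 551). Their distances from Ccn1 were 1.53, 1.70 and 1.70 log2 units, so no gene had a pair of signals close to that of Ccn1. For Ccn2, which lay under the signal minimum, the nearest genes were the pseudogenes Mrpl42-ps2 and Smarce1-ps10 and the transcription factor gene Sox6. Their distances were 0.02, 0.03 and 0.03 log2 units. Neighbours were sought with no signal minimum, and only 11718 of 22093 genes were measured, so many genes were dim. The small distances of Ccn2 are therefore not set against those of Ccn1.

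**Figure D2:**
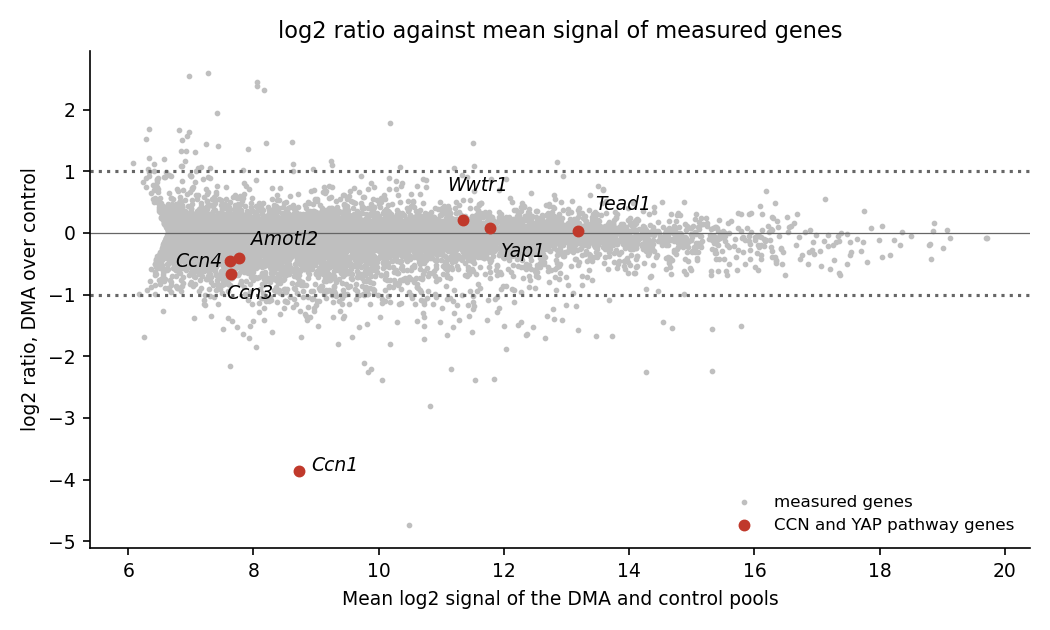
log2 ratio of DMA over control (vertical axis) against the mean log2 signal of both pools (horizontal axis) for the 11718 measured genes in grey, with the 7 measured CCN and YAP pathway genes in red and dotted lines at 2-fold. Ccn1 lies at -3.85, with a single gene below it, and the other 6 lie between -0.67 and 0.20.

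Genes that flank Ccn1 on its chromosome did not share its ratio. These were looked up after the value of Ccn1 had been seen, as the 3 protein-coding genes on each side in the GRCr8 gene table. Of the 6, 5 were measured and 0 were called lower or higher. Znhit6, directly on one side, gave 1280 in the DMA pool and 1407 in the control pool, a log2 ratio of -0.14. Ddah1, directly on the other side, which encodes an enzyme that degrades asymmetric dimethylarginine, gave 2825 in the DMA pool and 3125 in the control pool, a log2 ratio of -0.15. Odf2l, Bcl10 and C2h1orf52 were at -0.18, -0.14 and 0.08 on the log2 scale. Col24a1 was below the signal minimum, with 59.8 in the DMA pool and 69.0 in the control pool.

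The other measured CCN genes, Ccn3 and Ccn4, differed less between the pools. Ccn3 (formerly Nov), a family member known to restrain proliferation in several cell types, gave 158 in the DMA pool and 251 in the control pool, a log2 ratio of -0.67 or 1.59-fold lower (cluster TC0700001115.rn.1). Its Z score of -2.12 was past -2 but its ratio was not past 0.5, so it was not called. Of the 500 genes nearest to it in signal, 15 had lower ratios. Ccn4 (formerly Wisp1), described as a target of WNT signalling, gave 168 in the DMA pool and 230.4 in the control pool, a log2 ratio of -0.45 and a Z score of -1.30. Of its 500 neighbours in signal, 46 had lower ratios, so Ccn4 lay within the spread of genes of like signal.

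Ccn2, which drives matrix production downstream of TGF-beta, lay just under the signal minimum, with 77.4 in the DMA pool and 98.7 in the control pool. Its log2 ratio was -0.35, and no call was made. Ccn5 (formerly Wisp2), which lacks the C-terminal cysteine knot domain of the other family members, gave 63.1 in the DMA pool and 58.4 in the control pool. Ccn6 (formerly Wisp3), the remaining CCN gene, which was not among the 10, gave 41.1 in the DMA pool and 38.0 in the control pool. For Ccn2, Ccn5 and Ccn6 the signals were too dim for a difference to be read, and the normalization narrows ratios of dim transcripts. Of the CCN genes, a large difference was therefore seen in Ccn1 alone, while the array gave no usable reading for 3 of the other 5.

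**Figure D3:**
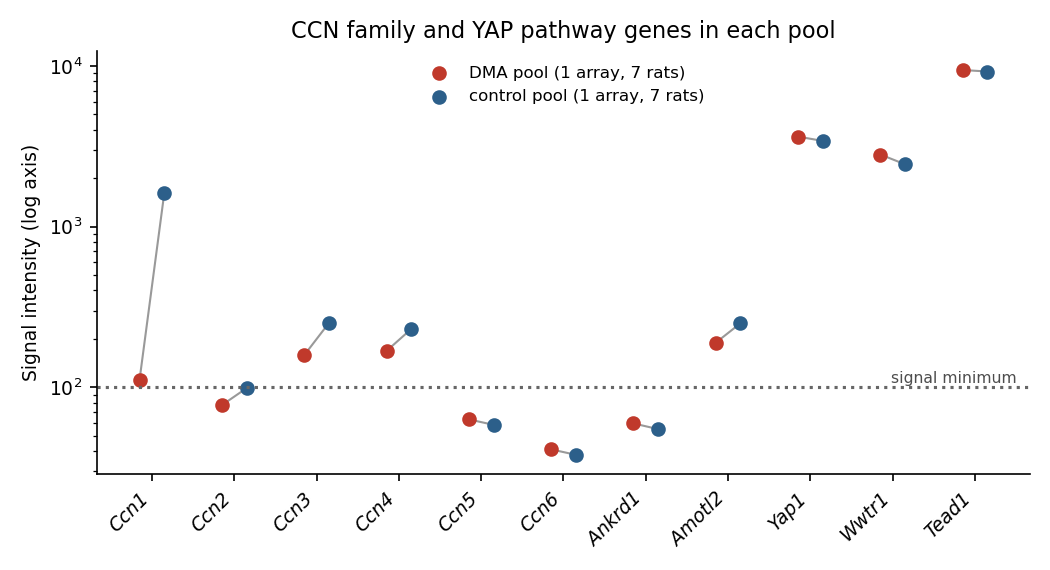
Signal intensity on a log axis for the CCN genes, including Ccn6, the YAP targets Ankrd1 and Amotl2, and Yap1, Wwtr1 and Tead1, in the DMA pool (red, left) and the control pool (blue, right), 1 array of 7 pooled rats each. The dotted line marks the signal minimum of 100. The Ccn1 points are 112 for DMA and 1612 for control, and the points of Yap1, Wwtr1 and Tead1 nearly coincide.

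Neither of the YAP targets outside the CCN family, Amotl2 and Ankrd1, was called. Amotl2, an angiomotin relative that binds YAP at cell junctions and holds it in the cytoplasm, gave 189 in the DMA pool and 250.1 in the control pool. Its log2 ratio was -0.40 (1.32-fold lower) with a Z score of -1.27, and 44 of the 500 genes nearest in signal had lower ratios. Ankrd1, a nuclear and sarcomeric ankyrin repeat protein induced by stretch in muscle, gave 59.5 in the DMA pool and 54.9 in the control pool, below the signal minimum in both.

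The transducers themselves were bright and nearly level between the pools. Yap1 gave 3626 in the DMA pool and 3412 in the control pool, a log2 ratio of 0.09 that was -0.01 when each array was centred on its median. Wwtr1, which encodes TAZ, gave 2808 in the DMA pool and 2439 in the control pool, a log2 ratio of 0.20 with a Z score of 0.85. Tead1 gave 9424 in the DMA pool and 9218 in the control pool, a log2 ratio of 0.03 that was -0.07 after the same centring. None of the 3 was called. Activity of YAP and TAZ depends on phosphorylation and location in the cell, neither of which an expression array measures.

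Other targets of YAP and TAZ, known from human cell lines, were counted to set the 10 genes in their pathway. Of 30 listed genes, 28 had a cluster and 23 were measured. Of these 23, 3 were called lower (13.0%, against 1.42% of all measured genes), 0 were called higher (against 0.375%) and 20 were neither. The list was chosen with earlier results of these arrays known, so nothing is read from these counts. Their median log2 ratio was -0.36, beside -0.04 over all measured genes, and 16 of 23 were below 0, where 58.9% of all measured genes were. With each array centred on its median, 18 of 23 targets and 77.7% of all measured genes were below 0. After the loess correction, 16 of 23 targets and 50.1% of all measured genes were. The distance from the share over all genes thus depended on the scaling. The centring used the median of all 68842 clusters, which lay under the signal minimum. It moved the median log2 ratio of the measured genes from -0.04 to -0.14. Of the 23 targets, 21 had both signals at 100 or more.

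The 3 lower targets were Igfbp3, Ccdc80 and Tgm2. Igfbp3, which binds insulin-like growth factors, gave 1611 in the DMA pool and 8294 in the control pool, a log2 ratio of -2.36 with a Z score of -7.91. Ccdc80, a matrix-associated protein of connective and adipose tissue, gave 2941 in the DMA pool and 9232 in the control pool, a log2 ratio of -1.65. Tgm2, a transglutaminase that crosslinks matrix proteins, gave 1498 in the DMA pool and 3686 in the control pool, a log2 ratio of -1.30. All 3 had lower signals in the DMA pool by more than the 2-fold limit, yet each by less than Ccn1.

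Next in size among the targets were genes that did not pass both limits. The EGF receptor ligand Areg was at 0.93 (177 in the DMA pool and 93.1 in the control pool). The LIM domain gene Lmcd1, the caveola component Cavin2, the ectonucleotidase Nt5e and the receptor kinase Axl were at -0.91, -0.86, -0.77 and -0.56 on the log2 scale. Targets thus lay on both sides of 0. The list also held Thbs1, F3 and Gadd45a, well-known YAP targets whose log2 ratios were 0.17, 0.15 and 0.18. Those 3 were named after their values had been seen, as targets with ratios above 1.

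Genes of the Hippo pathway upstream of YAP, and the partners of TEAD, differed little. Of 33 listed genes, 29 were measured, 0 were called lower and 1 was called higher. Of all measured genes, 1.42% were lower and 0.375% higher, so nothing is read from these counts. The median log2 ratio of the 29 was -0.07, beside -0.04 over all measured genes. The gene called higher was Vgll3, a vestigial-like cofactor that binds TEAD factors in place of YAP, with 3391 in the DMA pool and 1642 in the control pool. Its log2 ratio was 1.05 with a Z score of 3.77, and it was 0.95 when each array was centred on its median, which ended the call. The atypical cadherin gene Fat4 was at -0.79 (235 in the DMA pool and 406 in the control pool), and the FERM domain gene Frmd6 was at -0.52. The scaffold gene Sav1, the cadherin gene Dchs1, which encodes a ligand of Fat4, Amot, Wwc1 and Fat1 were at -0.43, -0.29, -0.28, 0.26 and 0.22. The core kinase genes lay near 0, with Stk3 at -0.21, Stk4 at -0.07 and Lats1 at -0.16; they were picked for their role after their values had been seen.

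Receptors for CCN proteins were expressed in both pools at similar signals. Of 15 listed genes, 12 were measured and 0 were called in either direction. This was close to the 1.42% lower and 0.375% higher of all measured genes. The median log2 ratio of the 12 receptor genes was -0.07, beside -0.04 over all measured genes. The largest absolute log2 ratios were those of the lipoprotein receptor family gene Lrp1 (-0.39), the integrin subunit gene Itgav (0.32), the heparan sulphate proteoglycan gene Sdc4 (-0.31) and the integrin subunit gene Itgb2 (-0.21). Itgav, a subunit of the integrins to which CCN1 binds, gave 9320 in the DMA pool and 7489 in the control pool.

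Ccn1 is also an immediate early gene, and 1 other gene of that class was called lower, by far less than Ccn1. Of 14 measured genes of 20 listed, 1 was called lower and 0 were called higher. All 14 had log2 ratios below 0, from -1.11 to -0.004, where 58.9% of all measured genes were below 0. With each array centred on its median, this held for all 14 and for 77.7% of all measured genes. After the loess correction it held for 13 and for 50.1%. The median was -0.15, beside -0.04 over all measured genes, of which 1.42% were called lower and 0.375% higher. The list was chosen with earlier results of these arrays known, so nothing is read from these counts. The gene called lower was Dusp1, a phosphatase of MAP kinases, with 747 in the DMA pool and 1612 in the control pool, a log2 ratio of -1.11. Jun, Klf4 and Klf2 were at -0.72, -0.72 and -0.69 on the log2 scale, and Fos, named after its value had been seen, gave 557 in the DMA pool and 589 in the control pool.

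**Figure D4:**
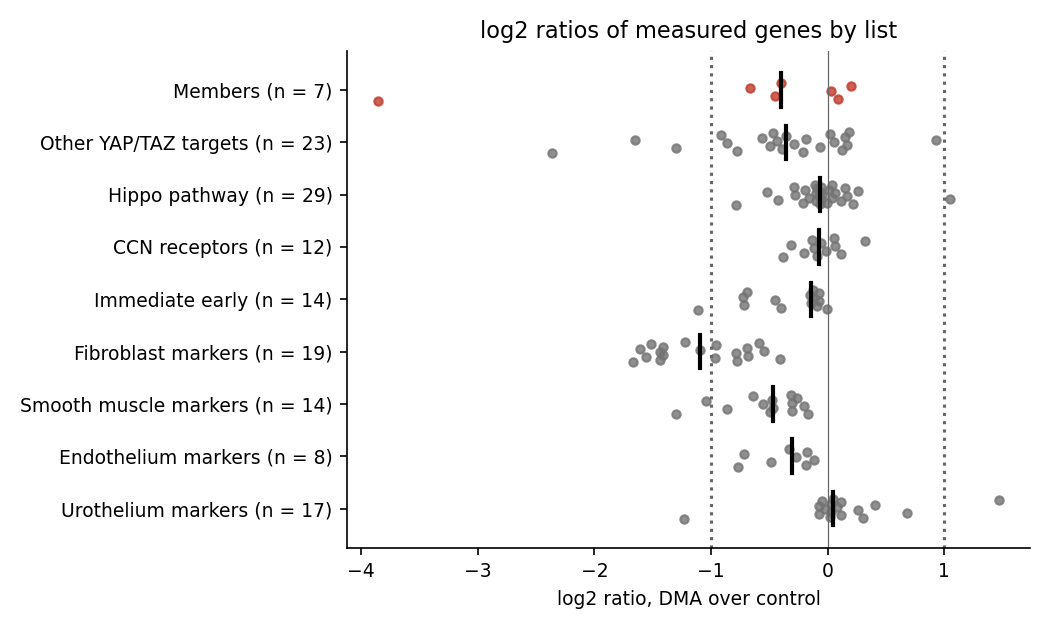
log2 ratio of DMA over control (horizontal axis) for each measured gene of 9 lists, with a black bar at the median of each list and dotted lines at 2-fold. The red point at -3.85 is Ccn1.

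Markers of the connective tissue of the bladder were lower in the DMA pool, as was Ccn1. All 19 fibroblast and matrix markers were measured, 10 were called lower and 0 higher, where 1.42% of all measured genes were lower and 0.375% higher, and their summed signal was 237952 in the DMA pool and 486151 in the control pool. The lowest among them were Ogn (-1.67), Mfap5 (-1.61) and Col1a2 (-1.56). Ccn1 (-3.85) and Igfbp3 (-2.36) had lower log2 ratios than these markers, and Ccdc80 and Tgm2 lay within their range. Only Cyp1a1 had a lower ratio than Ccn1 among all measured genes, so Ccn1 would lie below the markers of nearly any list. Smooth muscle markers summed to 577260 in the DMA pool and 751267 in the control pool, with 2 of 14 called lower (Hspb6 at -1.30 and Kcnmb1 at -1.04; Smtn was at -0.86). Endothelial markers summed to 5275 in the DMA pool and 6809 in the control pool, with 0 of 8 measured genes called and the lowest at -0.77 (Kdr), -0.72 (Plvap) and -0.49 (Eng). Urothelial markers summed to 2190050 in the DMA pool and 2063820 in the control pool, with Krt14 higher (1.47), Krt20 lower (-1.23) and Krt18 at 0.68. Of the 17 measured, 12 were above 0, and the median was 0.04. A difference of at least 1.5-fold was seen in 1 of them in the lower direction and in 2 in the higher. All markers of fibroblasts and smooth muscle, and the 17 urothelial markers with a cluster, gave signals above 100 in both pools. Both pools thus held transcripts of muscle and connective tissue besides those of the urothelium. The muscle gene Acta2, for example, gave 193999 in the DMA pool and 268031 in the control pool. The endothelial markers Vwf and Cldn5 were below the signal minimum, and normalized intensities of this kind do not reach 0. The part of tissue makeup in the values of Ccn1 and the other targets was not tested.

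A few markers of other tissues of the bladder wall were also called lower, where 1.42% of all measured genes were lower and 0.375% higher. Macrophage markers summed to 6912 in the DMA pool and 9159 in the control pool, with 1 of 10 called lower (Fcgr2b at -1.10). Csf1r was at -0.88 and Ptprc at -0.81. These 3 were the lowest, and the log2 ratios of the 10 had a median of -0.67 and reached up to 0.03. Nerve and glia markers summed to 10415 in the DMA pool and 15171 in the control pool. Of 6 measured genes, 2 were called lower (Stmn2 at -2.21 and Ncam1 at -1.05), and Pmp22 was at -0.68. Stmn2 gave 1054 in the DMA pool and 4888 in the control pool and carried most of the lower sum. Uchl1 was level, with 7801 in the DMA pool and 7866 in the control pool, and Tubb3 was at 0.11. Adipocyte markers summed to 26572 in the DMA pool and 21853 in the control pool, and without the bright Fabp4 to 1623 in the DMA pool and 3183 in the control pool. The direction of the sum thus rested on Fabp4. Of 5 measured adipocyte markers, Adipoq (-1.20) and Lpl (-1.15) were called lower. Fabp4, Retn and Cidec were at 0.42, 0.33 and 0.19, so 3 of the 5 were above 0, with a median of 0.19. Retn and Cidec had signals near 100. Skeletal muscle markers summed to 1980 in the DMA pool and 1973 in the control pool, with 0 of 5 measured genes called and the largest absolute log2 ratios at -0.19 (Tnnt3), -0.12 (Tnnc2) and 0.12 (Tnni2).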

How the data were processed

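RNA of 7 rats per group was pooled, extracted with TRIzol and labelled with a GeneChip WT PLUS kit, per the labels. The deposited table holds linear intensities for transcript clusters, which the authors made with RMA in Affymetrix Expression Console 1.4.1. The array named in the study's methods differs from that of the platform annotation, and the genome build behind the clusters is not given in the sources used here. The methods also name a median normalization and removal of signals under 100. Deposited medians were 53.2 (DMA) and 49.7 (control), and signals under 100 were present, so neither step had been applied. RMA scales the arrays to each other, so a shift common to most genes may have been removed, although the deposited medians still differed.

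Signals were taken to log2, and the log2 of the deposited values were numbers with 6 decimals. Of 68842 clusters, 23446 had 1 symbol, and 22077 of these were matched by gene identifier to the GRCr8 gene table. The brightest cluster stood for a gene. Thresholds were those of the study, and the signal minimum on the higher of both signals and the Z score over 500 neighbours were choices made here. With 1 array per group no test was possible, and the number of arrays limits the precision. The calculation was tested on simulated data before use. Promoter sequences were from RefSeq (GRCr8). Groups were taken from the labels. The genes and lists were chosen with earlier results of these data known. Named genes were the 10 genes and Ccn6, up to 8 genes with the largest absolute log2 ratio of the YAP target and Hippo lists, up to 4 of the receptor and immediate early lists, up to 3 of each cell type list, and the 3 genes nearest to Ccn1 and to Ccn2. Outside this rule, Cyp1a1, Hbbl1, the genes flanking Ccn1, Thbs1, F3, Gadd45a, Stk3, Stk4, Lats1 and Fos were named after their values were seen. So were the markers Retn, Cidec, Uchl1, Tubb3 and Acta2. Python 3.11.15, pandas 2.3.3 and statsmodels 0.14.6 were used.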

Additional observations from a re-analysis of the deposited data

How the results depend on the processing

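The calls of the 7 measured genes were the same under 7 alternatives, namely centring each array on its median, a loess correction, no signal minimum, a minimum on both signals, the mean over all clusters of a gene, Z over all measured genes, and 50 added to each signal. Each of these 7 genes had 1 cluster and both signals above 100, so the changed minima and the mean over clusters could not alter its ratio. Z over all measured genes did not alter the ratio either, and centring left each Z as it was. Over the 7 alternatives, the log2 ratio of Ccn1 ran from -3.95 to -3.36 and that of Ccn3 from -0.76 to -0.53. Those of Ccn4 and Amotl2 ran from -0.55 to -0.36 and from -0.50 to -0.33. Ccn2, Ccn5 and Ankrd1 entered with no signal minimum and were not called. Yap1 and Tead1 changed sign with the centring and were not called. The same centring used the median of all clusters, not of the measured genes, and shifted every ratio by -0.0987. It left 0 Hippo genes called higher, with Vgll3 at 0.95, and gave 4 lower YAP targets. With no signal minimum the median was -0.21 for the YAP target list and -0.16 for the 10 genes, beside 0.03 over all genes, because dim genes entered. Over all genes, 44 were higher, against 19 with both signals at least 100 and 24 with 50 added. No paired analysis was possible because each group had 1 array, and no array could be left out. Signals near 100, such as that of Ccn1 in the DMA pool, limit how large a fold can be read.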
